A study of Homo sapiens with 7 samples.

Results

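A set of 724 strong Rb regions appeared at the promoters of single genes in ZR-75-1 breast cancer cells treated with palbociclib, out of 6644 regions found in both treated libraries on chromosomes 1-22 and X. The regions were chosen by the peak values themselves. Overlapping Rb peaks of the 2 palbociclib libraries were joined, a region had to hold a peak of each library and touch no peak of either DMSO library ("gained"), it had to overlap the promoter of exactly 1 protein-coding gene (2000 bp upstream to 500 bp downstream of a GENCODE transcription start site, TSS), and its strongest peak had to reach a fold enrichment of 10 in each palbociclib library ("strong"). Fold enrichment is the ratio of the fragment pileup at a peak to the local background that the peak caller estimated from the matched IgG control, with 1 fragment added to each, which lowers the ratio where the background is low. Because presence and fold enrichment chose the regions, both are described below and neither is tested. The 724 regions lie at the promoters of 720 genes, which is 3.67% of the 19626 protein-coding genes with an annotated start on these chromosomes. Of all 6644 regions, 5520 (83.1%) were gained, 4905 of these lay at a protein-coding promoter and 4061 at the promoter of a single gene.

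Rb, the product of RB1, is a pocket protein that holds E2F transcription factors in check when it is underphosphorylated and recruits chromatin-modifying co-repressors to promoters. Cyclin D-dependent CDK4 and CDK6 phosphorylate Rb and release E2F, and palbociclib, a CDK4/6 inhibitor used in oestrogen receptor-positive breast cancer, blocks that step. Rb does not read DNA by itself and reaches promoters through E2F-DP dimers and other DNA-bound partners.

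Rb was mapped by CUT&RUN, in which an antibody directs a nuclease to cut out the DNA next to its target. ZR-75-1 is an oestrogen receptor-positive human breast cancer line. The groups were parental cells given DMSO (2 libraries) or 500 nM palbociclib (2 libraries) for 4 days with the Rb antibody, RB1 KO cells given DMSO (1 library) or 500 nM palbociclib (1 library) with the same antibody, and parental cells given palbociclib with an IgG2a control antibody (1 library). The RB1 KO cells were made by CRISPR and grown from sorted single cells, and the palbociclib libraries came from biological replicates of an experiment that was carried out once. The deposited lists held 8399 and 8256 peaks with palbociclib, 996 and 816 with DMSO, 65 and 51 in RB1 KO cells and 2648 with IgG2a. Read totals are not part of the peak lists. The lowest background that could be recovered from the lists, which scales with a library's fragment coverage, was 0.516 and 0.549 fragments per base with palbociclib and 0.571 and 0.465 with DMSO, so by this measure the 4 parental Rb libraries were of similar coverage.

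The sequences under 3 of the strongest regions and under 4 regions with an E2F match show what the summits covered. All are written 5′ to 3′ along the gene from hg38, in lower case, with motif matches in capitals, and were limited to stretches outside annotated exons. In the first 3, which are centred on the summit, the capitals mark matches to the E2F, NFY (CCAAT), SP/KLF (GGGCGG) or NRF1 letters on either strand.
SEC16A (chr9:136483274-136483474, minus strand): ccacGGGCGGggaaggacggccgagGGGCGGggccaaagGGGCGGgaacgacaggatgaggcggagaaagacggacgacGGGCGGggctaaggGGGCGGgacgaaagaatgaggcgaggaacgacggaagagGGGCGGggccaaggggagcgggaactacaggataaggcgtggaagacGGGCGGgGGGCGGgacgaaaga
ZNF846 (chr19:9792319-9792519, minus strand): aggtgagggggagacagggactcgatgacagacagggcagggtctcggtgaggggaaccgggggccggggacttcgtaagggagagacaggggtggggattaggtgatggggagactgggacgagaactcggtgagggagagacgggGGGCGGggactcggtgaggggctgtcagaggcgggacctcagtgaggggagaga
IGFLR1 (chr19:35740600-35740800, minus strand): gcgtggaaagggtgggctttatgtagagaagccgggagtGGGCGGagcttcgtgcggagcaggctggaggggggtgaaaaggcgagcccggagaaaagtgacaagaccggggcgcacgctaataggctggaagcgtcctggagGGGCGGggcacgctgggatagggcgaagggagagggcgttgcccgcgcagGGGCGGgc
The window at SEC16A held 8 matches, that at ZNF846 held 1 and that at IGFLR1 held 3, and every one of them was an SP/KLF match. None of the 3 windows held an E2F or a CCAAT match.

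The next stretches are centred on the E2F match, in capitals, of the strongest regions that held one outside an exon.
AEN (chr15:88621105-88621185, plus strand): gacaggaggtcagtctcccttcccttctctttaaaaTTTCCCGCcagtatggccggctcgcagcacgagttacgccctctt
GNAI2 (chr3:50227910-50227990, plus strand): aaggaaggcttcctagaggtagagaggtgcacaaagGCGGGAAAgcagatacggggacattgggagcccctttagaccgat
SUZ12 (chr17:31936782-31936862, plus strand): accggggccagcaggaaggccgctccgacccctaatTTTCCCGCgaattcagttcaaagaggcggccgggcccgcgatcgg
HPF1 (chr4:169757633-169757713, minus strand): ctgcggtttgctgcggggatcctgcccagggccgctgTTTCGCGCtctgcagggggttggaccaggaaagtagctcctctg
AEN encodes a p53-induced nuclease, GNAI2 an inhibitory G protein alpha subunit, SUZ12 a core subunit of Polycomb repressive complex 2 and HPF1 a cofactor of PARP1. The match at AEN lay at -195 bp from the TSS and the peak summit at -102 bp, and the match at SUZ12 lay at -185 bp with the summit at -106 bp. The other matches lay downstream of the TSS, at 271 bp for HPF1 with the summit at 177 bp. At GNAI2 the match lay at 1658 bp and the summit at 1585 bp, in an intron. That region overlaps the promoter, but its summit lies beyond the limit of 500 bp downstream. At SUZ12 the stretch also holds TTCAAA, the reverse complement of the CHR letters, downstream of the E2F match. The fold enrichment in replicates 1 and 2 was 18.8 and 18.6 at AEN, 17.9 and 20.7 at GNAI2, 17.7 and 21.1 at SUZ12, and 16.4 and 18.5 at HPF1.

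A CCAAT box near the summit was far more common, and 3 of the strongest regions that held one outside an exon are shown with the box in capitals.
ABCA7 (chr19:1040014-1040094, plus strand): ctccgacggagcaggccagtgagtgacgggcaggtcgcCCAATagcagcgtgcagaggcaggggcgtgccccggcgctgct
HSPA8 (chr11:123062520-123062600, minus strand): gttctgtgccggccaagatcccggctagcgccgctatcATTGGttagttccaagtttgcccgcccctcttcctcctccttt
CHCHD3 (chr7:133082148-133082228, minus strand): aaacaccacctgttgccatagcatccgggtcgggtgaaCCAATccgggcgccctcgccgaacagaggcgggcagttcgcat
The boxes lay at -53, -208 and -98 bp from the TSS, and the summits of the same regions at -43, -171 and -102 bp. In each the CCAAT box was within 40 bp of the summit.

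Fold enrichment across the 724 regions had a median of 13.7 in replicate 1 (range 10.0 to 35.2) and 13.5 in replicate 2 (range 10.0 to 37.6). Most regions sat near the lower end: 322 had a smaller value of the 2 libraries between 10 and 12, 235 between 12 and 15, 131 between 15 and 20, and 36 of at least 20. The replicates gave similar values, within 1.5-fold of each other at 688 of 724 regions (95.03%, exact 95% interval 93.2 to 96.5), with replicate 1 the higher at 373. The median absolute log2 ratio of the replicates was 0.19. The rule favours such likeness, since it leaves out regions that reached 10 in only 1 library. In weak gained regions the replicates were within 1.5-fold at 80.0%. Spearman's rho between the replicates was 0.56 over the 724 regions and 0.74 over all 4061 gained single-gene regions, a description across regions that share the same libraries and, for the 724, a range narrowed by the threshold. The least alike were TBC1D10A at 10.4 and 20.4, FOXO3 at 22.8 and 11.8 and FAM168A at 24.6 and 12.9, 3 regions named after their values were seen.

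**Figure D1:**
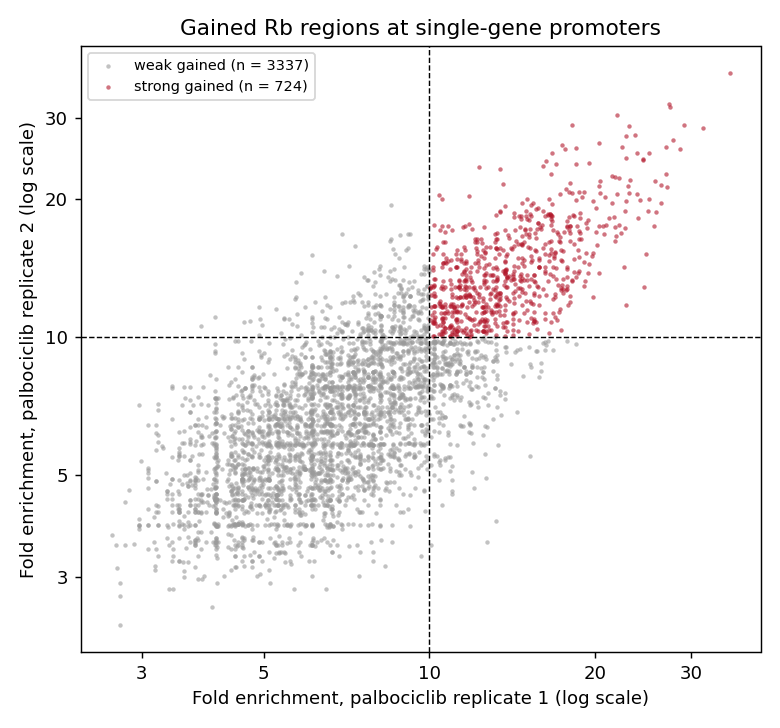
Fold enrichment of each gained single-gene promoter region in palbociclib replicate 1 (x axis, log scale) and replicate 2 (y axis, log scale), one point per region, with the 724 strong regions in red and the 3337 weaker ones in grey. The dashed lines mark the minimum of 10 in each library, and the cloud of weaker regions runs into the strong ones with no gap at the threshold.

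The threshold cut through a continuous range of values. Just inside it were ITGB4 (11.8 and 10.0 in replicates 1 and 2), USP42 (10.0 and 10.9) and SDF2L1 (10.0 and 12.8). Just outside were COP1 (9.98 and 14.1), CNTNAP2 (12.6 and 9.99) and ME2 (13.2 and 9.99).

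At SEC16A, which encodes the scaffold of endoplasmic reticulum exit sites, the fold enrichment was 35.2 and 37.6, higher than at any other of the 724 regions in either library. Several others of the 25 strongest lay at genes of membranes and organelles. This grouping was made by hand after the values were seen, and the share of such genes over all genes was not counted. RTN3, an endoplasmic reticulum-shaping reticulon, had 31.5 and 28.6. ABCA7, a lipid transporter, had 27.4 and 31.8. CHCHD3, a subunit of the mitochondrial cristae-organizing complex, had 28.5 and 25.7. UGT8, the ceramide galactosyltransferase, had 24.5 in each library, and SLC12A2, the sodium-potassium-chloride cotransporter NKCC1, had 22.1 and 22.3. B3GALNT2, a glycosyltransferase acting on dystroglycan, had 21.8 and 22.3, WDR45, a phosphoinositide-binding autophagy factor, had 26.4 and 21.5, and ELMOD2, a GTPase-activating protein for ARL2, had 26.9 and 22.7. BLTP3B, a bridge-like lipid transfer protein, had 23.1 and 28.9, and TMEM14B, a small membrane protein, 25.7 and 21.9.

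Genes of transcription and chromatin, grouped in the same way, were also among the 25 strongest. ZNF846, a zinc finger gene, had 27.3 and 32.2. FOXJ1, the master regulator of motile cilia, had 24.5 and 24.3. SAP130, a subunit of the Sin3-HDAC co-repressor, had 23.8 and 25.3. KLF16, a Krüppel-like factor that binds GC boxes, had 22.8 and 24.6. BAHCC1, a chromatin reader with a BAH domain, had 22.5 and 25.9, and HNRNPAB, an RNA-binding protein, 23.2 and 22.03. The rest of the 25 were C12orf29, an RNA ligase (29.0 and 29.0), IGFLR1, a receptor for IGF-like proteins (27.7 and 26.9), HSPA8, the constitutive HSP70 chaperone (26.9 and 26.0), DCBLD2, a transmembrane receptor-like protein (25.1 and 25.2), ETFBKMT, a mitochondrial lysine methyltransferase (23.6 and 27.6), MROH6 (22.8 and 27.5), CASP2, an apoptotic caspase (21.9 and 30.5) and EGLN2, an oxygen-sensing prolyl hydroxylase (21.5 and 22.5). None of these 25 windows held an E2F match within 100 bp of the summit. The share was 6.35% over all 724 regions, so 25 are too few to show a difference. No gene among the 25 belongs to the list of S-phase and replication genes, which holds 9 of the 720 genes with a strong gained region.

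**Figure D2:**
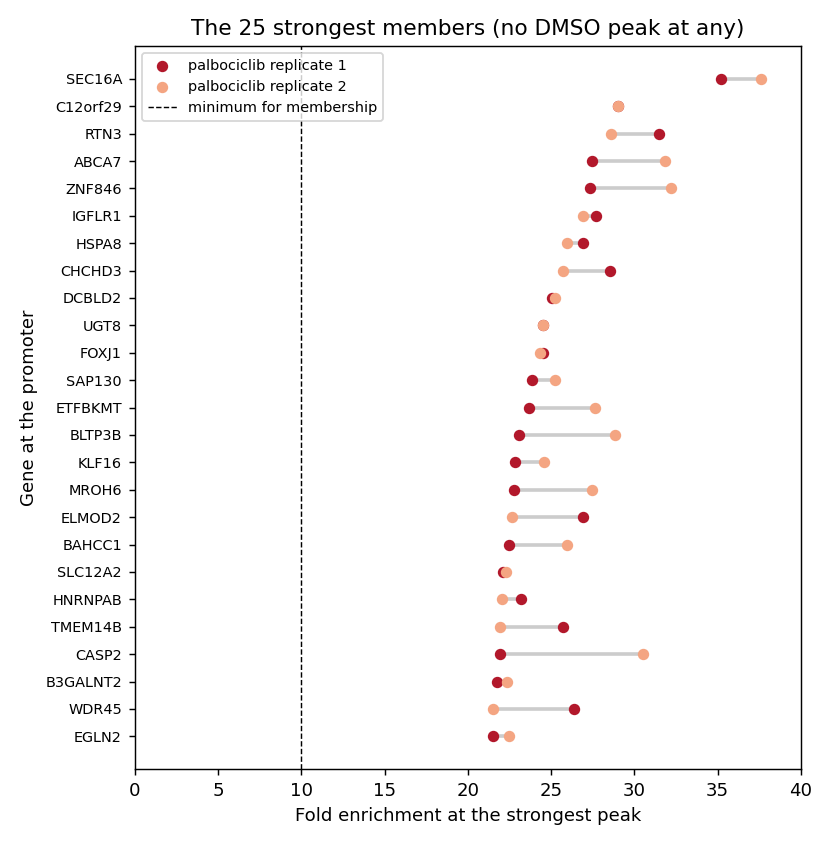
Fold enrichment (x axis) at the strongest peak of the 25 regions with the largest smaller value of the 2 palbociclib libraries, 1 row per gene on the y axis, replicate 1 in dark red, replicate 2 in light orange, joined by a grey line; the dashed line marks the minimum of 10. All 50 points lie above 20, and CASP2 shows the widest gap, from 21.9 to 30.5.

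The signal at these promoters can be set beside the calling limit with DMSO. Fold enrichment and p-value together fix the number of fragments at a summit under the peak caller's Poisson model, and the 724 regions had a median of 31 fragments in palbociclib replicate 1 (range 15 to 106) and 32 in replicate 2 (range 15 to 109) over a median local background of 1.26 and 1.32 fragments. At the same local background, scaled to each DMSO library's own lowest background, a peak as significant as the weakest one listed would have needed a median of 9 fragments in DMSO replicate 1 and 8 in replicate 2. The minimum fold enrichment of 10 keeps the palbociclib pileup above this need, so the gap follows from the rule. The need is an estimate that assumes a background of the same shape in both treatments, and signal below the calling limit in DMSO cannot be seen in a peak list. Weak peaks were listed with DMSO, since 88.9% and 88.0% of the DMSO peaks on chromosomes had a fold enrichment under 10. Of the 724 regions, 1 had a DMSO peak within 1000 bp.

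Being gained was less common at this strength than over all regions. Of the 1399 single-gene promoter regions that reached a fold enrichment of 10 in both palbociclib libraries, 724 (51.8%) were gained, against 83.1% of all regions. The rule uses both values, so nothing about the members follows from these shares. Regions kept from DMSO, meaning that they overlapped a region joined from both DMSO libraries, had a median fold enrichment of 26.2 and 25.9 with palbociclib (322 single-gene regions), against 6.597 and 6.43 in the 3337 weak gained regions. A further 463 single-gene regions touched a DMSO peak but no region joined from both DMSO libraries.

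The strong gained regions were centred just upstream of the TSS. The median summit position was -54 bp (interquartile range -143 to 52.8), -53.5 bp by the summits of replicate 1 and -51.5 bp by those of replicate 2 (SD 1.41 bp, n = 2 libraries). Weak gained regions lay closer to the start, at -11 bp (-6 and -8 bp by replicate), and kept regions at -63 bp (-60 and -49 bp). The strong gained median moved to -37 bp when palbociclib replicate 2 was left out. The summit was upstream of the TSS in 450 of the 724 (62.2%, exact 95% interval 58.5 to 65.7), in 53.9% of weak gained regions (52.2 to 55.6) and in 62.1% of kept regions (56.6 to 67.4). These intervals, like all others given here, cover counting error only, and regions are not independent replicates of a treatment.

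Most summits were close to a start. In 344 of the 724 the summit was within 100 bp of the nearest TSS and in 618 (85.4%) within 250 bp. The replicate summits of a region were a median of 32.5 bp apart, against 68 bp in weak gained regions, which is more than the distance between the class medians. By the annotation of the gene, 332 summits lay outside the gene body, 184 in a 5′ UTR, 57 in a coding exon, 151 in an intron and 0 in a 3′ UTR. The share outside the gene was 45.9% (exact 95% interval 42.2 to 49.6) against 34.4% (32.8 to 36.1) in weak gained regions. A non-coding transcript started on the opposite strand within 1000 bp upstream at 155 promoters (21.4%, 18.5 to 24.6), close to the 22.3% of weak gained regions.

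**Figure D3:**
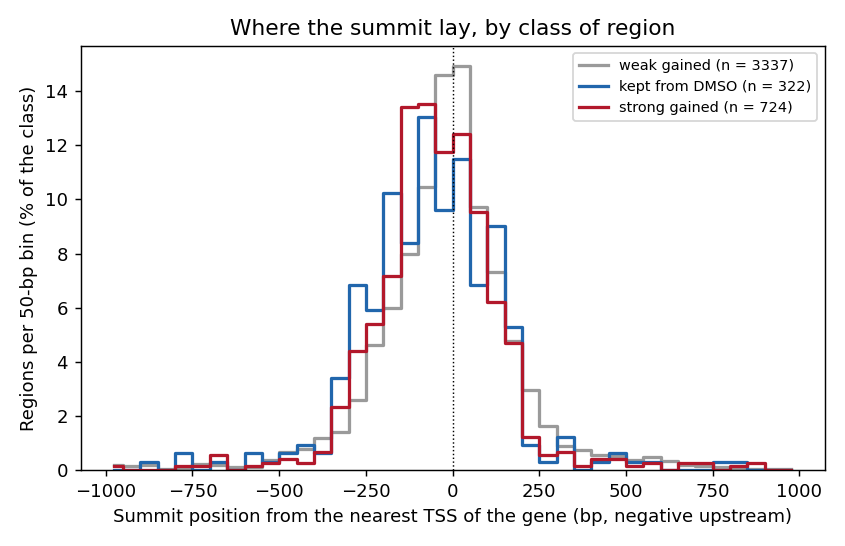
Distribution of summit positions from the nearest TSS of the gene (x axis, bp, negative upstream; y axis, percent of the class per 50-bp bin) for the 724 strong gained (red), 3337 weak gained (grey) and 322 kept (blue) regions; positions beyond 1000 bp are not drawn. The red curve is shifted upstream of the grey one, with medians of -54 and -11 bp.

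Summits far from the start were few. In 11 regions the summit was more than 1000 bp from the TSS. Among them, FOXO3, a forkhead factor restrained by insulin signalling, had 22.8 and 11.8 with the summit at -1592 bp, and JUNB, an AP-1 subunit, had 21.8 and 17.4. Both genes are named after their values were seen.

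4 genes carried a pair of strong gained regions each. GNAI2 had regions at chr3:50226231-50228119 (fold enrichment 17.9 and 20.7) and chr3:50235679-50236481 (16.0 and 17.6), TUBB, a beta-tubulin, at chr6:30719909-30720453 (22.8 and 19.8) and chr6:30720952-30721631 (12.5 and 15.5), and HNRNPF, a splicing regulator, at chr10:43396528-43397497 (13.2 and 10.7) and chr10:43408704-43409611 (13.3 and 11.3). KLF10, a TGF-beta-induced transcription factor, had regions at 10.7 and 11.6 and at 11.7 and 11.6. Regions of the same gene share a target and are not separate observations of it.

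The regions had a median width of 773 bp, against 542 bp for weak gained and 1001 bp for kept regions, and width moves with peak strength by construction. The widest lay at ZBTB14 (2248 bp), a zinc finger repressor, ADAM15 (1993 bp), a membrane metalloproteinase, KLF16 and GNAI2 (1889 bp each) and TEDC1 (1862 bp), a centriole protein.

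Strong gained regions held the letters of an E2F site near the summit in 46 of 724 windows of 201 bp (6.35%, exact 95% interval 4.69 to 8.38). The E2F letters searched on both strands were TTTCCCGC, TTTCGCGC, TTTGCCGC and TTTGGCGC. By the summits of replicate 1 and replicate 2 the share was 5.94% and 6.77%. It was 4.35% (3.68 to 5.09) in weak gained regions, 14.9% (11.2 to 19.3) in kept regions and 2.71% (2.49 to 2.95) in windows of the same length centred on the TSS of all 19626 protein-coding genes. The interval of the strong gained regions overlapped that of the weak gained regions and lay below that of the kept regions. Kept regions are stronger, but in the range of smaller fold enrichment from 10 to 20 the shares were 6.69% (688 strong gained regions) and 14.4% (97 kept regions, 8.12 to 23.03), whose intervals overlapped. Strength still differed within that range, with medians of 12.2 and 16.3. In the 36 strongest members, at 20 or more, 0 had a match, which allows a share of up to 8.33%.

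E2F matches were spread over the window and not gathered at the summit. Among the 46 regions with a match, the 48 matches lay a median of 63 bp from the summit and -34 bp from the TSS. Within 50 bp of the summit the share with a match was 1.93% in strong gained and 1.98% in weak gained regions, and within 250 bp it was 13.7% and 10.3%. With the same letters less their first T it was 24.3%, 21.7% and, in kept regions, 41.9%. In the RefSeq promoters of the same genes, a fixed window from 250 bp before to 50 bp after the gene start that does not depend on the summit (611 of 720 genes matched by symbol), it was 7.20% (5.28 to 9.55), against 5.35% for weak gained, 19.8% for kept, 4.49% for all promoters and 2.81% for promoters with no palbociclib region.

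CCAAT boxes, which NF-Y binds, differed between strong and weak gained regions by more percentage points than any other motif that was searched. A box was found in 248 of 724 windows (34.3%, exact 95% interval 30.8 to 37.8; 34.0% and 35.4% by replicate summits), in 21.6% of weak gained windows (20.2 to 23.01), in 37.3% of kept windows (32.0 to 42.8) and in 25.04% of all promoters. In the range of smaller fold enrichment from 10 to 20 the order of strong gained and kept windows was the other way round, 34.2% (30.6 to 37.8) against 25.8% (17.4 to 35.7), with intervals that overlapped. The share was 30.1% in the 322 regions with a smaller fold enrichment of 10 to 12, 34.5% at 12 to 15, 43.5% at 15 to 20 and 36.1% in the 36 at 20 or more (20.8 to 53.8). At least 2 boxes stood in 104 windows (14.4%, 11.9 to 17.1), against 7.01% of weak gained and 18.6% of kept windows. The 402 matches lay at a median of -92 bp from the TSS, with 44.8% of them between -120 and -40 bp. In the fixed RefSeq promoters the shares were 49.6% (45.6 to 53.6), 36.6% for weak gained, 56.0% for kept, 36.5% for all promoters and 33.9% for promoters with no palbociclib region. Both E2F and CCAAT letters were present in 18 of the 724 windows (2.49%, 1.48 to 3.90), against 1.02% of weak gained and 6.52% of kept windows. Whether the letters occur together more often than their separate shares give was not tested.

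GC boxes with the SP/KLF letters GGGCGG were present in 547 windows (75.6%, 72.3 to 78.6), 71.0% of weak gained windows (69.4 to 72.6), 72.7% of kept windows and 50.6% of all promoters. Between 10 and 20 in smaller fold enrichment they were in 75.9% of strong gained windows (72.5 to 79.03) and 61.9% of kept windows (51.4 to 71.5). NRF1 letters (GCGCATGC) were in 4.14% (2.81 to 5.86) against 2.997% of weak gained windows and 2.96% of all promoters. CHR letters (TTTGAA), the element of many mitotic promoters, were in 15 windows (2.07%, 1.16 to 3.39), against 3.24% of weak gained, 4.97% of kept and 6.73% of all promoter windows. TATA letters (TATAAA) were in 1.38% against 6.57% of all promoters. Windows of all promoters are centred on the TSS and the others on the summit. In the fixed RefSeq promoters CHR letters were in 8.02%, against 7.91% for weak gained, 9.70% for kept and 12.1% for all promoters. TATA letters were there in 4.09%, against 9.65% for all promoters. The windows were GC-rich, with a median of 71.1% GC in strong gained, 71.6% in weak gained and 68.7% in kept regions against 65.2% around all starts, and how far base composition sets the shares against all promoters was not tested. Of the 724 windows, 111 (15.3%) held none of the E2F, CCAAT and SP/KLF letters, against 22.5% of weak gained windows (21.1 to 24.0).

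**Figure D4:**
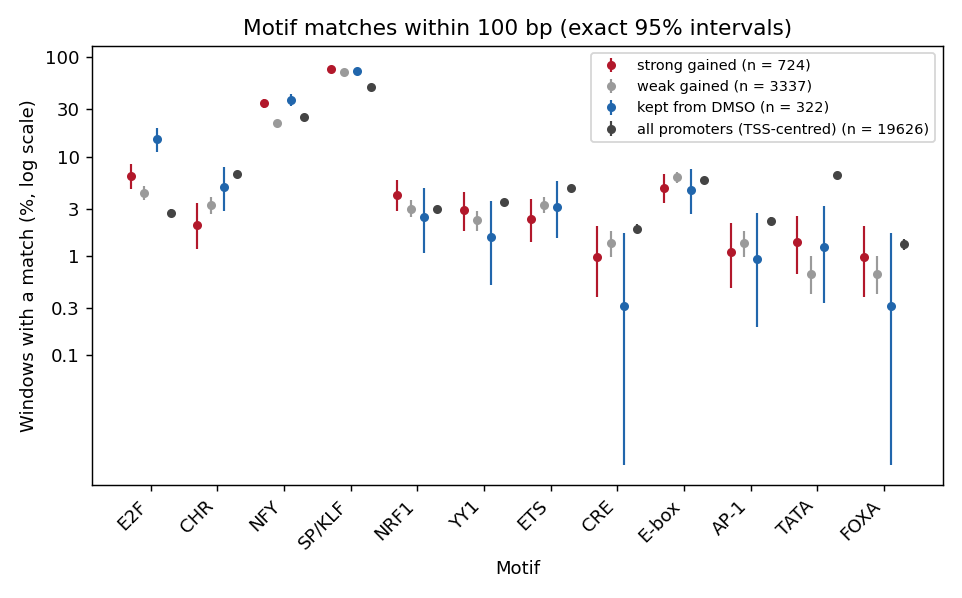
Share of 201-bp windows with at least 1 match (y axis, percent, log scale) for 12 motifs (x axis) in strong gained (red), weak gained (grey) and kept (blue) regions, centred on the summit, and around all TSSs (black); points are shares and bars exact 95% binomial intervals. CCAAT (NFY) separates strong gained from weak gained regions, 34.3% against 21.6%, while E2F is highest in the kept regions at 14.9%.

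The remaining motifs were rare. YY1 letters (AAGATGGC) were in 2.90% of strong gained windows (1.804 to 4.40) and 2.28% of weak gained windows (1.7985 to 2.84), whose intervals overlapped, and in the fixed RefSeq promoters in 7.69% (5.71 to 10.1) and 4.07% (3.35 to 4.89), whose intervals did not. ETS letters (CCGGAAGT) were in 2.35% against 3.27%, E-box letters (CACGTG) in 4.83% against 6.17%, AP-1 letters (TGAGTCA) in 1.10% against 1.35%, CRE letters (TGACGTCA) in 0.967% against 1.35%, ZBTB33 letters (CTCGCGAG) in 0.967% against 1.23%, FOXA letters (TGTTTAC) in 0.967% against 0.659%, and ZNF143 letters (ACTACAAT) in 0.414% against 0.150%. A match of letters is a description of the sequence and does not show that the factor was bound.

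By function, strong gained regions were found at 21 of 160 chromatin regulator genes (13.1%, exact 95% interval 8.31 to 19.4), against 3.67% of all protein-coding genes. The 4 strongest were TRIM24, a bromodomain co-regulator of the oestrogen receptor (22.97 and 21.4 in replicates 1 and 2), MBD1, a methyl-CpG binding protein (18.0 and 18.3), SUZ12 (17.7 and 21.1) and CBX8, a Polycomb repressive complex 1 subunit (17.0 and 23.9). A palbociclib region of any kind was found at 105 of the 160, and 21 of these 105 had a strong gained one, while over all genes with a palbociclib region the share was 10.8%. A region kept from DMSO was found at 9 of the 160, and at 546 of all 19626 genes.

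In PI3K, mTOR and insulin signalling, 10 of 75 genes (13.3%, 6.58 to 23.2) had a strong gained region, against 3.67% of all genes. A palbociclib region of any kind was found at 40 of the 75. Of these 40, 25% had a strong gained one, against 10.8% of all genes with a palbociclib region. INSR, the insulin receptor, had 18.0 and 21.7, LAMTOR4, a subunit of the lysosomal Ragulator complex, 13.8 and 13.8, SESN3, a stress-induced sestrin, 13.8 and 13.5, and ULK1, the kinase that starts autophagy, 11.8 and 12.4. The summit at INSR lay at 0 bp, on the TSS itself.

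Most cell cycle genes had a palbociclib region. In the list of S-phase entry and DNA replication, 90 of 98 genes had a palbociclib region, of which 30 had one kept from DMSO, and 9 had a strong gained one (9.18%, 4.29 to 16.7; 9 of the 90, against 10.8% of all genes with a palbociclib region). These included POLA1, the catalytic subunit of the primase polymerase (20.4 and 17.5), E2F3, an activating E2F (15.8 and 14.2), TFDP1, the DP1 partner of E2F (13.96 and 13.6) and CCND3, cyclin D3 (12.6 and 13.7). RFC3, a clamp loader subunit (11.0 and 10.5), and CDKN2D, the CDK4/6 inhibitor p19 (12.7 and 10.3), were the members of this list with an E2F match near the summit, named after their values were seen.

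In mitosis and chromosome segregation, 12 of 105 genes (11.4%, 6.05 to 19.1) had a strong gained region, and 14 had a kept one. The 12 were 15% of the 80 with any palbociclib region, against 10.8% of all genes with one. The 12 included ZWINT, a kinetochore protein (26.4 and 19.6), MKI67, which encodes the proliferation marker Ki-67 (20.1 and 17.0), NCAPH, a condensin I subunit (16.5 and 18.4) and ANAPC5, a subunit of the anaphase-promoting complex (16.5 and 16.1). None of the 12 had an E2F match within 100 bp of the summit. The share was 6.35% over all 724 regions, so 12 are too few to show a difference. In DNA repair 2 of 106 genes had a strong gained region (1.89%, 0.229 to 6.65), an interval that includes the 3.67% of all genes. These were RNF168, a histone H2A ubiquitin ligase (15.3 and 14.6), and REV3L, the catalytic subunit of polymerase zeta (13.2 and 14.8). The 2 were 2.33% of the 86 repair genes with any palbociclib region, and 22 repair genes had a kept one.

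**Figure D5:**
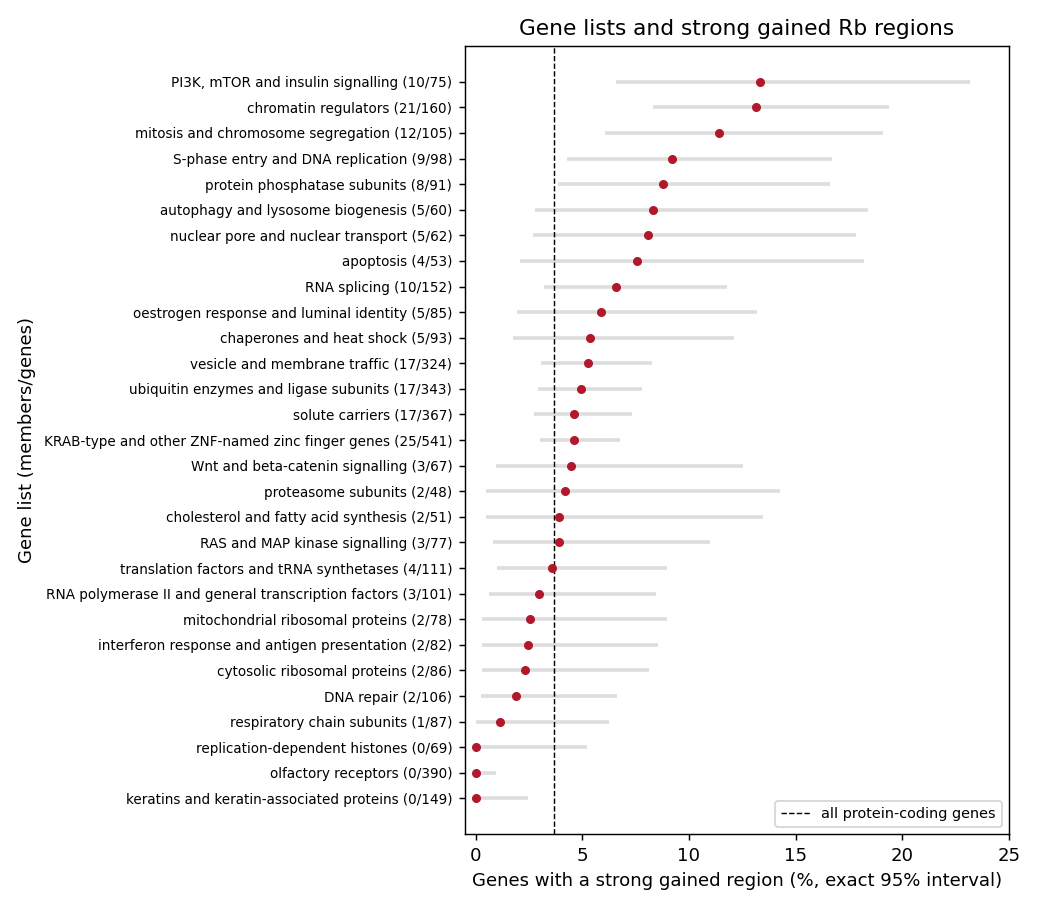
Share of the genes of each of 29 lists (y axis, with counts) that had a strong gained region at the promoter (x axis, percent); points are shares, bars exact 95% binomial intervals, and the dashed line the share of all protein-coding genes, 3.67%. The intervals of the PI3K, chromatin, mitosis, S-phase and phosphatase lists lie above the line, and those of olfactory receptors and keratins below it. The olfactory receptor and keratin genes had no palbociclib region of any kind.

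Protein phosphatase genes had 8 of 91 (8.79%, 3.87 to 16.6), among them PPP6R3, a regulatory subunit of PP6 (16.6 and 18.5), PPP2R5E, a B56 subunit of PP2A (15.4 and 19.7), PPP3CA, a catalytic subunit of calcineurin (14.8 and 16.1) and PPP2R1B, a scaffold subunit of PP2A (13.2 and 16.1). The 8 were 16.3% of the 49 phosphatase genes with any palbociclib region, against 10.8% of all genes with one. Autophagy genes had 5 of 60, led by WDR45, and nuclear pore and transport genes 5 of 62, led by NUP50, a nucleoporin (15.1 and 15.7), and NUP210, a pore membrane protein (13.8 and 14.05). Apoptosis genes had 4 of 53, which were CASP2, BNIP3L, a mitophagy receptor (14.6 and 12.8), BCL2L11, the BH3-only protein BIM (12.2 and 13.9) and CYCS, cytochrome c (11.4 and 10.4). The intervals of these 3 lists included 3.67%.

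RNA splicing genes had 10 of 152 (6.58%, 3.20 to 11.8), led by HNRNPAB, LSM2, a U6 snRNP ring protein (18.5 and 23.9), RBM23 (15.6 and 16.8) and SRSF4, an SR protein (15.3 and 17.2). Vesicle and membrane traffic genes had 17 of 324, led by SEC16A, RAB40B (22.7 and 17.3), EXOC4, an exocyst subunit (16.7 and 18.5) and AP1S2, an adaptor subunit (14.3 and 14.3). Ubiquitin enzymes had 17 of 343, led by TRIM24, FBXO46 (18.2 and 29.0), OTUD4, a deubiquitinase (16.7 and 17.9), and TRIM9 (14.98 and 18.3), and solute carriers 17 of 367, led by SLC12A2 and SLC4A7, a bicarbonate transporter (15.7 and 17.2). ZNF-named zinc finger genes had 25 of 541 (4.62%, 3.01 to 6.75), led by ZNF846 and ZNF567 (20.9 and 20.2), and chaperones 5 of 93, led by HSPA8 and DNAJC13 (13.2 and 15.7). The shares were 5.25% (3.09 to 8.27) for vesicle and membrane traffic and 4.96% (2.91 to 7.82) for ubiquitin enzymes. For solute carriers the share was 4.63% (2.72 to 7.31) and for chaperones 5.38% (1.77 to 12.1). The intervals of these lists, and of the splicing and zinc finger lists, included the 3.67% of all genes.

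In the list of oestrogen response and luminal identity, 5 of 85 genes had a strong gained region. The share was 5.88% (1.94 to 13.2), an interval that includes the 3.67% of all genes. The members included MICB, a ligand of an activating natural killer cell receptor (13.8 and 12.2), MYB, a proto-oncogenic transcription factor (12.2 and 15.4), and TBX3, a T-box factor of mammary development (11.7 and 12.4). Wnt signalling genes had 3 of 67, namely AXIN1, the scaffold of the beta-catenin destruction complex (21.9 and 20.5), FZD1, a Wnt receptor (17.5 and 12.8), and ZNRF3, a ligase that removes Wnt receptors (13.0 and 12.5). RAS and MAP kinase genes had 3 of 77, with MAP2K7, a kinase that activates JNK, the strongest (15.2 and 18.0). The shares were 4.48% (0.933 to 12.5) for the Wnt list and 3.90% (0.811 to 11.0) for the RAS list, with intervals that included 3.67%.

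Housekeeping lists had 1 to 4 members each, and each interval included the 3.67% of all genes. Translation factors had 4 of 111, RNA polymerase II and general transcription factors 3 of 101, cytosolic ribosomal proteins 2 of 86, mitochondrial ribosomal proteins 2 of 78, proteasome subunits 2 of 48, and respiratory chain subunits 1 of 87. Of the genes in these lists with any palbociclib region, 3.23% (respiratory chain) to 8% (proteasome) had a strong gained one. The share was 10.8% over all genes with a palbociclib region. A gained region at more than 1 protein-coding promoter, which the rule leaves out, was counted at 23 of the 78 mitochondrial ribosomal genes. Among other lists it was counted at 20 of 93 chaperone genes and at 0 of 67 Wnt genes. The share over all genes was not counted, so nothing about the list follows from the 23. Interferon and antigen presentation genes had 2 of 82, and cholesterol and fatty acid synthesis 2 of 51, namely LSS (16.9 and 14.9) and MSMO1 (19.2 and 14.6), both enzymes of sterol synthesis. The intervals of the interferon and cholesterol lists also included 3.67%. No strong gained region was found at 69 replication-dependent histone genes, 149 keratin and keratin-associated genes and 390 olfactory receptor genes. The keratin and olfactory receptor genes had no palbociclib region of any kind, so their counts say nothing about strength or gain. A palbociclib region was found at 6 of the histone genes, and the interval of that list (0 to 5.21%) included 3.67%. The gene lists overlap in part, and no list was tested.

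The regions were free of called signal in the cells without Rb. No RB1 KO peak overlapped any of the 724 regions, with DMSO or with palbociclib, which allows a share of up to 0.414% in each. The RB1 KO lists hold 4 and 5 peaks on the chromosomes, so they could have overlapped few regions of any kind. An IgG2a peak overlapped 8 of the 724 (1.10%, exact 95% interval 0.478 to 2.17), against 1.43% of all 4061 gained single-gene regions and 2.17% of kept regions (0.878 to 4.43). Rb peaks were called over the matched IgG control, so the calling and the minimum fold enrichment both act against such overlaps. The low share is therefore a description and no separate check of the regions. The strongest of the 8 lay at LMAN1, a cargo receptor of the secretory pathway (20.9 and 17.5), VAPA, a membrane contact protein (19.4 and 17.3), C3orf80 (14.7 and 13.8), LPCAT4, a phospholipid acyltransferase (12.7 and 12.8) and DELE1, a mitochondrial stress messenger (17.5 and 12.5). As each of these control groups had 1 library, there is no replicate check of the overlaps.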

How the data were processed

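Paired-end CUT&RUN reads were cleaned with BBDuk. The authors used Bowtie2 2.3.4.1 for alignment (build hg38), then discarded reads in blacklisted regions or on the mitochondrial genome. Duplicates stayed in. MACS2 2.2.7.1 gave narrow peaks for each library on its own, calling at a q-value of 0.05 or less over the matched IgG. Reads kept as duplicates can raise pileups. The control used for the IgG2a list is not given in the sources used here. The deposited lists give for each peak a score, the fold enrichment (a ratio) used throughout, the -log10 p-value and the -log10 q-value. Replicates were not pooled by the authors. Submitters' notes also name deepTools 3.5.0 and DiffBind, whose output was not used here.

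Overlaps of 1 bp were counted on chromosomes 1-22 and X with Python 3.11.15, pandas 2.3.3, numpy 2.4.6, scipy 1.17.1 and pysam 0.24.0, plots with matplotlib 3.10.9. TSSs were those of protein-coding transcripts of protein-coding genes in GENCODE 44, on the build of the peaks; no peak ran past the end of a chromosome. The summit was that of the library with the higher fold enrichment, and motifs were searched within 100 bp on both strands. Shares carry exact (Clopper-Pearson) 95% intervals, and a count of 0 an upper limit of 3 counts. The scripts were tested on simulated peaks, sequences and pileups. No test was run, since the values chose the members and regions are not replicates. The members, motifs and gene lists were chosen with earlier results of these data known. The genes named were the 25 strongest by the smaller fold enrichment, up to 4 per list, those at the threshold (3 on each side), with a control peak or with more than 1 region, and the 5 widest; shown sequences were limited to stretches outside exons of protein-coding genes. Alternatives were other thresholds, overlaps, promoters, windows and letters, and leaving out each replicate.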

Additional observations from a re-analysis of the deposited data

How the results depend on the processing

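The number of regions was 724 and stayed within 1.5 times of that under 9 of 11 alternatives; with a minimum fold enrichment of 8 it was 1261 and with 12 it was 402. Leaving out each palbociclib or DMSO replicate in turn gave 863 to 1034 regions. The E2F share of 6.35% was 1.93% with a window of 50 bp to each side of the summit, 13.7% with 250 bp and 24.3% with the shorter letters, as wider windows and shorter letters match more often; leaving out a replicate gave 5.22% to 6.94%. The pair of alternatives chosen after seeing the data, regions of 10 to 20 in smaller fold enrichment and the RefSeq promoter window, gave 6.69% and 7.20%. The median summit position stayed upstream under every alternative run, from -56 to -37 bp. It was -43 bp with a minimum of 8, -52 bp with a minimum of 12, -45.5 bp with the TSSs of all transcripts of protein-coding genes, -49 bp with a -log10 q of at least 5 in all parental lists and -51.5 bp by the summits of replicate 2, and leaving out a replicate gave -56 to -37 bp. The SD of 1.41 bp between replicate medians was taken over the same 724 regions. It does not measure moves that come with a change of regions or starts, and the cause of the moves was not tested. The IgG2a share stayed inside its interval under all 11 alternatives, between 0.870% and 1.49%. No paired analysis was possible because none of these results comes from a test. Peak lists show no signal below the calling limit, so a gained region may have held Rb with DMSO at a level under that limit.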

Other observations

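The share of genes with a strong gained region was counted for each of 23 chromosomes, and the highest and lowest are given with no test. On chromosome 18, 19 of 262 protein-coding genes had one (7.25%, exact 95% interval 4.42 to 11.1), and on chromosome 22, 28 of 434 (6.45%, 4.33 to 9.19), against 3.67% of all genes. Chromosome 16 had 45 of 843 (5.34%, 3.92 to 7.08) and chromosome 19 had 69 of 1432 (4.82%, 3.77 to 6.06). At the other end, chromosome 21 had 4 of 219 (1.83%, 0.4998 to 4.61), the X chromosome 18 of 853 (2.11%, 1.26 to 3.31) and chromosome 11 had 29 of 1291 (2.25%, 1.51 to 3.21). The intervals of chromosomes 19, 18, 22 and 16 lay above 3.67%, those of X and 11 below it, and that of chromosome 21 included it. Of the genes with any palbociclib region, those with a strong gained one were 17.2% on chromosome 22, 14.96% on chromosome 18, 9.84% on X and, at the lowest, 7.64% on chromosome 17, against 10.8% over all. The part of copy number in these shares was not tested.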
